A study of Homo sapiens with 12 samples.

Results

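The Krüppel-like factors (KLFs) were followed in 2 human acute myeloid leukaemia cell lines with and without an inhibitor of the receptor tyrosine kinase FLT3. The 10 genes KLF1, KLF2, KLF3, KLF4, KLF6, KLF7, KLF9, KLF10, KLF11 and KLF13 were taken by symbol from the table of counts per gene, which holds 19504 rows with a symbol. All 10 had a row, and 9 passed the filter on low counts; KLF1 did not. MV4-11 has an internal tandem duplication in FLT3, while OCI-AML3 has mutant NPM1 without that duplication. The groups were MV4-11 with AC220, MV4-11 with DMSO, OCI-AML3 with AC220 and OCI-AML3 with DMSO, each with 3 libraries. AC220 (quizartinib), the FLT3 inhibitor, was given at 5 nM and DMSO was its vehicle, and all groups were harvested after 24 h. Each line is a single established line in culture, and nothing in the labels ties the replicates to separate cultures; the p-values then reflect only how far these libraries spread, which may be technical.

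KLFs are transcription factors that bind GC-rich and CACCC-type DNA through a conserved set of zinc fingers at the carboxy end. Their amino ends differ and set the partners: KLF1, KLF2, KLF4, KLF6 and KLF7 are mainly activators, KLF3 binds the CtBP corepressors, and KLF9, KLF10, KLF11 and KLF13 can recruit the SIN3A histone deacetylase complex. In blood, KLF1 drives red cell genes, KLF4 promotes monocyte differentiation, and KLF2 is known for keeping T cells and monocytes quiescent.

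Expression was measured by sequencing the 3′ ends of transcripts, which gives about the same number of reads per transcript whatever its length. Total counts ran from 10877198 to 16918761 per library, and levels are given as CPM, which are counts scaled for library size with TMM factors. All 8 myeloid markers examined were measured, at a summed 632 to 663 CPM in MV4-11 AC220, 377 to 404 in MV4-11 DMSO, 599 to 656 in OCI-AML3 AC220 and 569 to 578 in OCI-AML3 DMSO. The 6 red cell markers summed to 0.304 to 0.636 CPM in MV4-11 AC220, 0.192 to 0.290 in MV4-11 DMSO, 0.0719 to 0.541 in OCI-AML3 AC220 and 0.0760 to 0.217 in OCI-AML3 DMSO, all of it ALAS2 and AHSP, with the haemoglobin genes HBB, HBA1 and HBA2 at no counts in any library. The 4 T cell markers in the table summed to 0.152 to 0.908 CPM in MV4-11 AC220, 0.0643 to 0.706 in MV4-11 DMSO, at most 0.208 in OCI-AML3 AC220 and at most 0.0777 in OCI-AML3 DMSO, all of it CD3D and CD3G, with CD3E and CD2 at no counts. The 5 B cell markers summed to 8.43 to 10.4 CPM in MV4-11 AC220 and to 2.44 to 3.53 in MV4-11 DMSO, with MS4A1 at 0 in MV4-11 AC220. The 6 epithelial and stromal markers summed to 13.6 to 21.1 CPM in MV4-11 AC220 and 11.1 to 11.4 in MV4-11 DMSO, mostly KRT8. In OCI-AML3 the B cell markers summed to at most 0.647 CPM with AC220 and 1.17 with DMSO, and the epithelial and stromal markers to at most 8.77 and 5.64. Of the myeloid markers 6 of 8 were called as higher with AC220 in MV4-11 by edgeR, beside 31.5% of all genes tested. The part of these marker changes in the KLF results was not tested. Replicate 1 of MV4-11 AC220 and replicate 3 of OCI-AML3 AC220 differed from the other libraries of their groups by up to 10.6 and 8.65 in chi-square per degree of freedom, where the lowest value between replicates was 2.79. Replicate 3 of OCI-AML3 DMSO also stood apart, by 6.65 and 6.59 from the others of its group.

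The first comparison asked how the family responded to FLT3 inhibition in the line with the FLT3 duplication. In MV4-11, KLF2, KLF6, KLF9 and KLF3 fell with AC220 and KLF10 and KLF13 rose. KLF2 was 5.16-fold lower and KLF10 3.07-fold higher, the largest called changes in each direction among the 9 genes tested. Of these 9 genes 6 were called, 2 higher and 4 lower with AC220, at a Benjamini-Hochberg adjusted p under 0.05 in edgeR's quasi-likelihood test. In the same comparison 58.3% of all 12392 genes tested were called, 31.5% up and 26.9% down, so that the share of KLFs called stood close to that of all genes. The libraries of the 2 MV4-11 groups did not overlap for 7 of the 9 KLFs, as for 62.4% of all genes tested. The median log2 fold change of the 9 KLFs was -0.35, and that of all genes tested was 0.07. Without KLF4, which had few counts and was not called here, the median of the other 8 was -0.12. Of these 8, 6 were called and 6 had groups that did not overlap. In these bulk samples fewer cells that express a gene and less of its RNA per cell cannot be told apart.

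**Figure D1:**
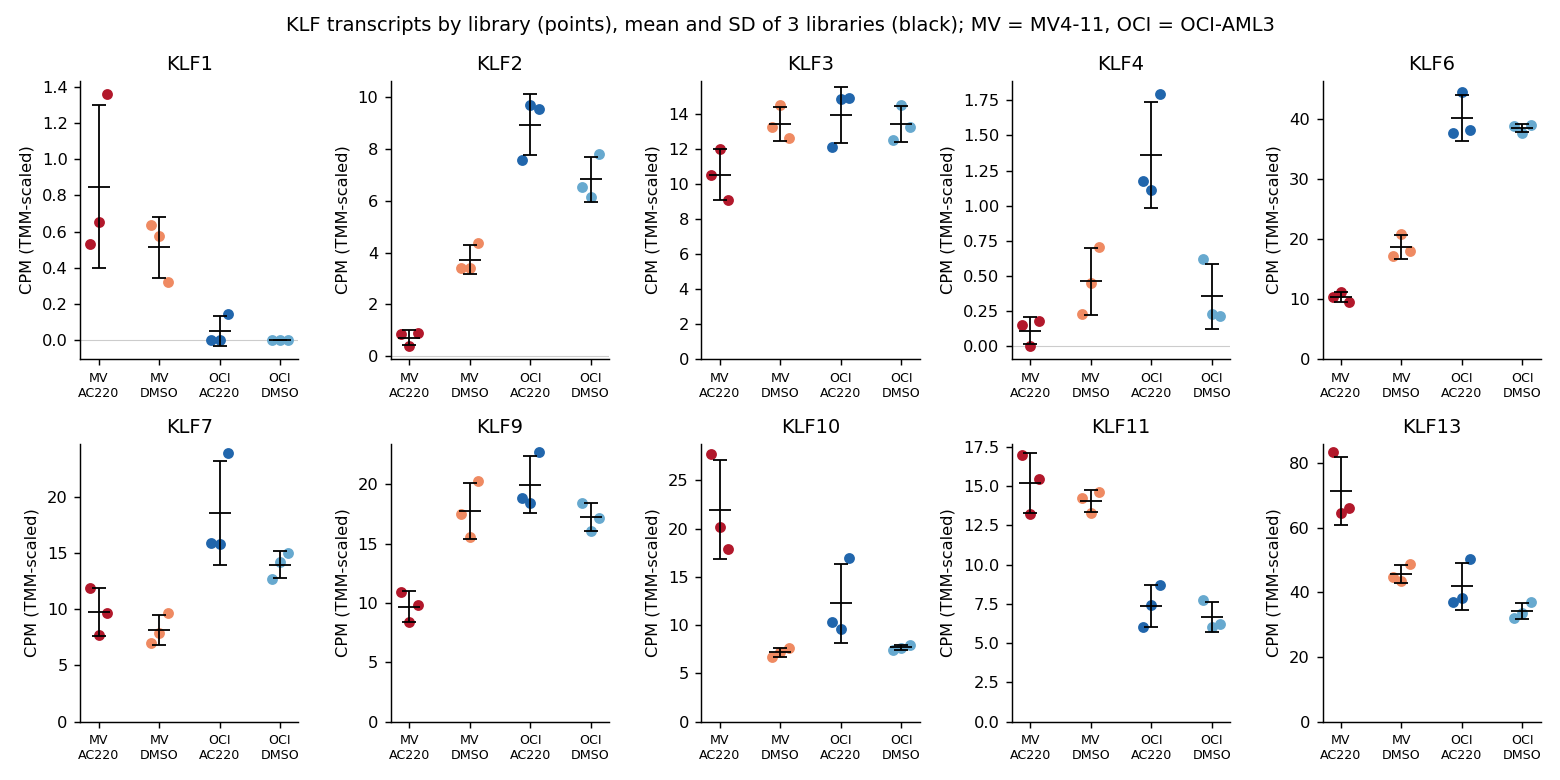
Each panel plots the CPM of a KLF gene (vertical axis) in the 3 libraries of each group (points), with the group mean and SD in black; the axes differ between panels. The MV4-11 AC220 libraries lie below all MV4-11 DMSO libraries for KLF2, KLF3, KLF4, KLF6 and KLF9 and above them for KLF10 and KLF13.

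Among the activators, KLF2 had 0.836, 0.372 and 0.908 CPM in the MV4-11 AC220 libraries, against 3.42, 3.40 and 4.37 CPM in MV4-11 DMSO. All 3 libraries with AC220 lay below every library with DMSO. AC220 over DMSO gave a log2 fold change of -2.37 (SE 0.303, adjusted p = 9.82e-08), from 25 counts summed over the AC220 libraries and 180 over the DMSO libraries. Of all genes tested, 360 had a lower log2 fold change. The promoter window of KLF2, on chromosome 19, is shown because of this fall and because a kinase cascade that ends in MEF2 factors induces KLF2 in endothelial cells. The RefSeq windows of this kind run from 250 bases before to 50 bases after a gene's start (GRCh38.p14), and the 250 bases before the start are printed, chr19:16324576-16324825 on the + strand. Capitals mark the match to the MEF2 consensus, CTAAATTTAG, which begins 120 bases before the start.

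KLF2: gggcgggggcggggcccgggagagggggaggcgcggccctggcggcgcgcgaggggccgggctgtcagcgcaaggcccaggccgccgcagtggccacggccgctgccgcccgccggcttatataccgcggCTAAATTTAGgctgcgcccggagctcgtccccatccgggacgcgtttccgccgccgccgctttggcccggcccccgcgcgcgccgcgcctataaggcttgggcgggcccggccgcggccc

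That consensus, searched on both strands, occurs in 2.99% of 35116 RefSeq windows, and among the windows of 8 KLFs it occurred in that of KLF2. The KLF2 window was 80.7% G or C and held 6 GC boxes (GGGCGG on either strand), a motif found in 45.0% of all windows. It also held 7 CACCC-type boxes (CCNCNCCC on either strand), found in 56.2% of all windows, and 4 of the GC boxes overlapped one of these. A match describes the letters of the window and does not show that a factor is bound there.

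KLF6, an activator present in most tissues, had 10.4, 11.2 and 9.44 CPM in the MV4-11 AC220 libraries, against 17.2, 20.9 and 18.0 CPM in MV4-11 DMSO. The groups did not overlap. This gave a log2 fold change of -0.85 (SE 0.118, adjusted p = 3.92e-07), a 1.81-fold lower level with AC220. KLF6 lies on the - strand of chromosome 10, and the 250 bases before its start (chr10:3785210-3785459, GRCh38.p14, RefSeq) are shown for comparison with KLF2. Capitals mark the GC boxes.

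KLF6: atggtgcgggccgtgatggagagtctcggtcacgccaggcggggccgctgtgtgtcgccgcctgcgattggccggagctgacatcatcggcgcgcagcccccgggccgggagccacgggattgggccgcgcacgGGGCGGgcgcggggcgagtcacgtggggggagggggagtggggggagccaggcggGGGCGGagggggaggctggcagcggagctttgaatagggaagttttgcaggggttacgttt

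The KLF6 window held 2 GC boxes and 6 CACCC-type boxes, and both GC boxes overlapped a CACCC-type box. No MEF2 consensus match was present in these letters.

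KLF4, which promotes monocyte differentiation, was near the limit of counting in MV4-11. It had 0.152, 0 and 0.182 CPM in the AC220 libraries, against 0.232, 0.449 and 0.707 CPM in MV4-11 DMSO. The groups did not overlap, but the AC220 libraries held 4 counts in all and the DMSO libraries 22. The log2 fold change of -1.92 (SE 0.837, adjusted p = 0.0509) missed the threshold, and passed it without MV4-11 DMSO replicate 1 (-2.25, adjusted p = 0.0296) and with limma-voom (adjusted p = 0.0450), within a range of 0.0296 to 0.197 over the alternatives. The ratio of the summed counts was 0.252, with a 95% counting interval of 0.0631 to 0.742.

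KLF7, an activator best known from neurons, was not called in MV4-11, and KLF1, the activator of red cell genes, was too low to be tested. KLF7 had 11.9, 7.73 and 9.63 CPM in the AC220 libraries, against 7.02, 7.89 and 9.65 CPM in MV4-11 DMSO, and the groups overlapped. Its log2 fold change was 0.27 with a 95% interval of -0.11 to 0.64 (adjusted p = 0.217). KLF1 had 0.532, 0.652 and 1.36 CPM with AC220 and 0.638, 0.577 and 0.322 CPM with DMSO, from 29 and 25 counts. The ratio of KLF1 between these groups was 1.61, with a counting interval of 0.909 to 2.86.

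KLF3, which represses through CtBP, had 10.5, 12 and 9.08 CPM in the MV4-11 AC220 libraries, against 13.2, 14.5 and 12.6 CPM in MV4-11 DMSO. The highest AC220 library lay just below the lowest DMSO library. The fall was a log2 fold change of -0.35 (SE 0.141, adjusted p = 0.0324). This call rested on single libraries: the adjusted p was 0.0558 without MV4-11 DMSO replicate 1, 0.117 without DMSO replicate 2, 0.0571 without AC220 replicate 1, 0.0862 without AC220 replicate 3 and 0.0512 without both AC220 libraries that stood apart, in a range of 0.0128 to 0.117 over all alternatives. KLF3 overlaps the gene KLF3-AS1 on the opposite strand in the GENCODE 29 annotation, and the strand setting of the counting was not given in the sources used here, so reads of the pair cannot be told apart.

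The SIN3A-binding members moved in both directions. KLF10, a gene induced early by TGF-beta that can restrain proliferation, had 27.7, 20.2 and 17.9 CPM in the MV4-11 AC220 libraries, against 6.67, 7.19 and 7.65 CPM in MV4-11 DMSO. All libraries with AC220 lay well above all with DMSO, and the AC220 group spread over a wider range. The rise was a log2 fold change of 1.62 (SE 0.187, adjusted p = 6.59e-08), and 611 genes tested had a higher one. Without replicate 1 of MV4-11 AC220, its highest library, it was 1.41.

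KLF13, which activates the chemokine gene CCL5 in T cells and can repress other promoters, was the most abundant of the 10 genes in MV4-11. It had 83.4, 64.6 and 66.1 CPM in the AC220 libraries, against 44.7, 43.6 and 48.8 CPM in MV4-11 DMSO. The groups were well apart. AC220 over DMSO came to a log2 fold change of 0.65 (SE 0.108, adjusted p = 1.34e-05), a 1.56-fold higher level. The 250 bases before the start of KLF13 (chr15:31326585-31326834, + strand, GRCh38.p14, RefSeq) are shown because it rose where KLF2 and KLF6 fell. Capitals mark the GC boxes.

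KLF13: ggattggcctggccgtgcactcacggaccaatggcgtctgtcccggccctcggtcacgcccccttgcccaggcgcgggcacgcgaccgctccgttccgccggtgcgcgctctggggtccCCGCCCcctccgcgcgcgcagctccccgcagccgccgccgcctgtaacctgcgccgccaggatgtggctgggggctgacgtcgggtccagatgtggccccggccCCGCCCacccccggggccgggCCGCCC

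The KLF13 window was 78.3% G or C, with 3 GC boxes and 4 CACCC-type boxes, and 2 of the GC boxes overlapped a CACCC-type box. GC boxes were thus present in the windows of KLF2 and KLF6, which fell, and of KLF13, which rose. The window of KLF9, which also fell, held no GC box.

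KLF9, which glucocorticoids and thyroid hormone induce in many tissues, had 10.9, 8.38 and 9.81 CPM in the MV4-11 AC220 libraries, against 17.5, 15.6 and 20.3 CPM in MV4-11 DMSO. The groups did not overlap. On the log2 scale the fold change was -0.87 (SE 0.138, adjusted p = 3.89e-06), 1.82-fold lower and close in size to that of KLF6. KLF11, the relative of KLF10 that TGF-beta also induces, had 17.0, 13.2 and 15.4 CPM with AC220 and 14.3, 13.3 and 14.7 CPM with DMSO in MV4-11. These overlapped, and the log2 fold change of 0.12 had a 95% interval of -0.18 to 0.42 (adjusted p = 0.509). An unnamed antisense gene overlaps KLF11 on the opposite strand in GENCODE 29, so its reads carry the same uncertainty as those of KLF3.

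The make-up of the family's RNA differed between the groups of MV4-11. The 10 genes summed to 151 ± 19.8 CPM in MV4-11 AC220 and 130 ± 6.41 CPM in MV4-11 DMSO (SD, n = 3 each), and the difference of these sums was not tested. KLF13 made up 47.4% ± 0.700 of the counts of the 10 genes with AC220 and 35.2% ± 0.841 with DMSO. KLF10 made up 14.5% ± 1.60 with AC220 and 5.52% ± 0.159 with DMSO. The shares of KLF6 were 6.94% ± 1.05 with AC220 and 14.4% ± 1.73 with DMSO, and those of KLF9 6.46% ± 0.496 and 13.7% ± 1.31. KLF2 held 0.467% ± 0.191 with AC220 and 2.87% ± 0.283 with DMSO.

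**Figure D2:**
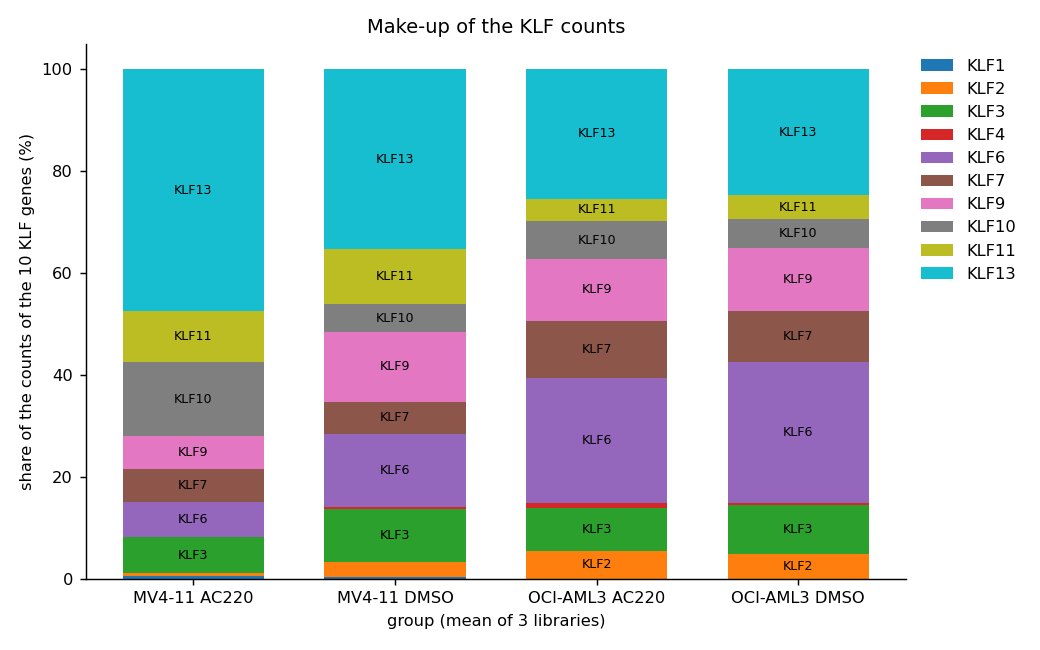
Stacked bars give the mean share of each KLF gene in the summed counts of the 10 genes (vertical axis, %) for each group of 3 libraries. KLF13 takes 47.4% in MV4-11 AC220 and 35.2% in MV4-11 DMSO, and in OCI-AML3 it takes 25.3% with AC220 and 24.6% with DMSO.

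The second comparison asked for the response in the line without the duplication. In OCI-AML3, edgeR called KLF4 alone, as higher with AC220. KLF4 passed the filter on low counts only through OCI-AML3 AC220, the group in which it was high, so its call is given as a value. The counts that follow leave it out unless they are said to include it. Of the other 8 KLFs edgeR and limma-voom called 0, with 4 at an unadjusted p under 0.05, and DESeq2 called KLF10 (log2 fold change 0.65, adjusted p = 0.0319). Of all genes tested edgeR called 3.95%, 3.44% up and 0.508% down. That count, 489 genes, ran from 13 to 1136 when 1 library was left out, with 13 and 15 without replicates 1 and 2 of OCI-AML3 DMSO, 998 without replicate 3 of OCI-AML3 DMSO, 944, 116 and 22 without replicates 1, 2 and 3 of OCI-AML3 AC220 and 1136 without replicate 1 of MV4-11 AC220. Limma on the authors' deposited log2 values called 1 of 11075 genes for AC220 in OCI-AML3. In the main fit the median log2 fold change was 0.25 over the 8 KLFs and 0.00 over all genes tested. The libraries of the 2 groups did not overlap for 3 of the 8, beside 23.9% of all genes tested.

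KLF4 had 1.17, 1.11 and 1.80 CPM in the OCI-AML3 AC220 libraries, against 0.622, 0.228 and 0.217 CPM in OCI-AML3 DMSO. The groups did not overlap, with 54 counts in all with AC220 and 14 with DMSO. The fit gave a log2 fold change of 1.93 (SE 0.554, adjusted p = 0.0453), and the ratio of counts was 3.90 with a counting interval of 2.14 to 7.61. DESeq2 gave it no adjusted p. In edgeR the adjusted p was 0.0524, 0.0653 and 0.0575 without each DMSO library of MV4-11, 0.119, 0.217 and 0.10 without each DMSO library of OCI-AML3, and 0.0852 and 0.269 without replicates 2 and 3 of OCI-AML3 AC220, in a range of 0.0266 to 0.269 over all alternatives.

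KLF10 had 10.3, 9.58 and 17.0 CPM in the OCI-AML3 AC220 libraries, against 7.46, 7.67 and 7.95 CPM in OCI-AML3 DMSO. The groups did not overlap, but replicate 3 of the AC220 group stood well above the other two. The fit gave a log2 fold change of 0.68 (SE 0.196, adjusted p = 0.0508), and without that library it was 0.36 (adjusted p = 0.408). KLF10 was called with DESeq2 (adjusted p = 0.0319), without a filter (0.00313), with a replicate block (0.0273) and with the OCI-AML3 libraries alone (0.0434). It was not called with limma-voom (0.0940). The adjusted p ranged from 0.00313 to 0.408 over the alternatives, and the number of KLFs called in OCI-AML3, KLF4 included, from 0 to 2. It was 0 without any one DMSO library of either line or without replicate 3 of OCI-AML3 AC220, and 2 without replicates 1 or 3 of MV4-11 AC220 or replicate 1 of OCI-AML3 AC220.

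The members that fell in MV4-11 were at other values in OCI-AML3. KLF2 had 7.58, 9.72 and 9.56 CPM with AC220 and 6.53, 6.15 and 7.81 CPM with DMSO, overlapping groups with a log2 fold change of 0.39 (adjusted p = 0.241). KLF6 had 37.7, 44.6 and 38.2 CPM with AC220 and 38.9, 37.8 and 39.1 CPM with DMSO in OCI-AML3. Its log2 fold change of 0.06 had a 95% interval of -0.14 to 0.26, which does not reach the change of -0.85 seen in MV4-11. KLF9 had 18.9, 18.4 and 22.7 CPM with AC220, against 18.4, 16.1 and 17.2 CPM with DMSO, overlapping groups with a log2 fold change of 0.21 (adjusted p = 0.364). KLF3 had 12.1, 14.9 and 14.9 CPM with AC220 and 12.5, 14.5 and 13.2 CPM with DMSO, a log2 fold change of 0.06 (adjusted p = 0.860).

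KLF13 had 37.1, 38.2 and 50.3 CPM in OCI-AML3 with AC220, against 32.1, 33.7 and 37.0 CPM with DMSO. These groups lay just apart, and the log2 fold change was 0.29 (95% interval 0.06 to 0.52, adjusted p = 0.138). KLF7 had 15.9, 15.8 and 23.9 CPM with AC220, against 12.7, 14.2 and 15.0 CPM with DMSO, also just apart, with a log2 fold change of 0.41 (adjusted p = 0.147). For 8 of the 10 KLFs, all but KLF2 and KLF6, the highest OCI-AML3 AC220 library was replicate 3, one of the libraries that stood apart from their groups; for KLF3 it exceeded replicate 2 by little. KLF11 had 6.04, 7.43 and 8.70 CPM with AC220 and 7.77, 6.0 and 6.22 CPM with DMSO, which overlapped (log2 fold change 0.16, adjusted p = 0.648). KLF1 had 0, 0 and 0.144 CPM with AC220 and no counts with DMSO, which allows up to 0.0753 CPM over that group (3 counts).

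**Figure D3:**
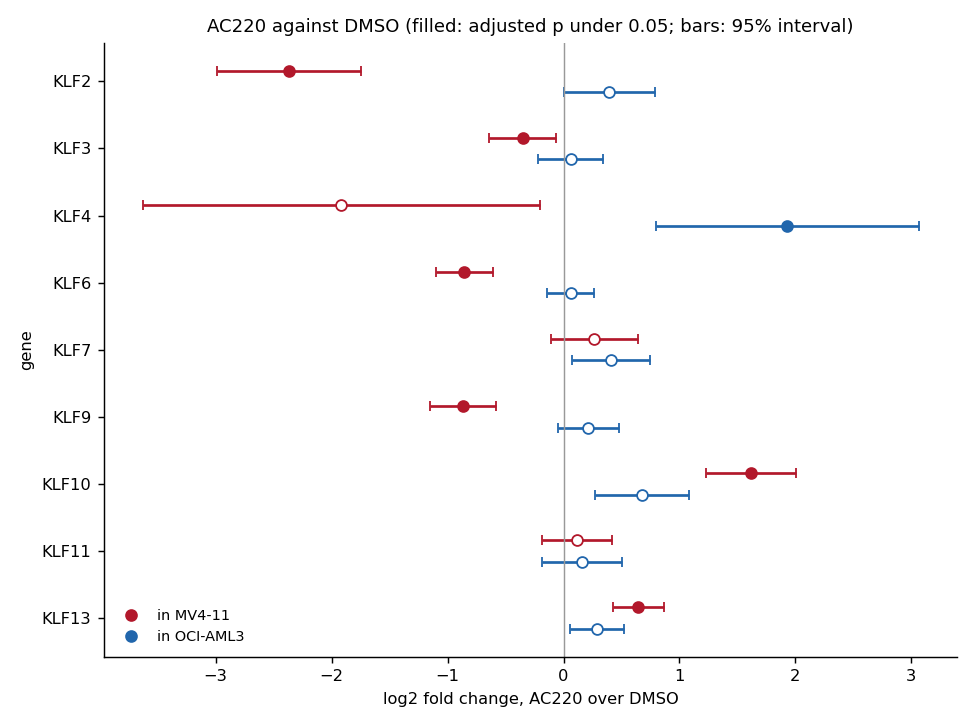
Points give the log2 fold change of AC220 over DMSO (horizontal axis) for the 9 KLF genes tested, in MV4-11 (red) above OCI-AML3 (blue), with 95% intervals; filled points have an adjusted p under 0.05. KLF2, KLF3, KLF6 and KLF9 are filled below 0 and KLF10 and KLF13 filled above 0 in MV4-11, and KLF4 alone is filled in OCI-AML3.

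Whether the response differed between the lines was tested directly, as the log2 effect of AC220 in MV4-11 minus that in OCI-AML3. KLF4 aside, it differed for 4 of 8 KLFs, lower in MV4-11 for KLF2, KLF6 and KLF9 and higher for KLF10. Among all genes tested 46.7% differed, 23.0% up and 23.7% down. The difference was -2.76 for KLF2 (SE 0.363, adjusted p = 2.86e-07), -0.92 for KLF6 (SE 0.154, adjusted p = 1.50e-05) and -1.08 for KLF9 (SE 0.189, adjusted p = 2.50e-05). For KLF10 it was 0.94 (SE 0.271, adjusted p = 0.00620).

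For KLF4 the estimates in the lines had opposite signs, -1.92 in MV4-11 and 1.93 in OCI-AML3, from few counts in each. Their difference was -3.84 (SE 0.995, adjusted p = 0.00213), a value to which the choice by the filter applies as above. KLF13 and KLF3 missed the threshold, with differences of 0.36 (95% interval 0.03 to 0.68, adjusted p = 0.0640) and -0.41 (-0.82 to -0.01, adjusted p = 0.0851). KLF13 passed under 8 of 21 alternatives. These were DESeq2 (adjusted p = 0.0476), median-ratio size factors (0.0371), no filter (0.0407), the replicate block (0.0305), the fits without replicate 3 of OCI-AML3 AC220 (0.00437) or replicate 2 of MV4-11 AC220 (0.0364), and those without 2 or all 3 of the libraries that stood apart (0.0121 and 0.0332). Its adjusted p reached 0.190 under the others. KLF3 passed without replicate 2 of MV4-11 AC220 (adjusted p = 0.0437) and without replicate 1 of OCI-AML3 AC220 (0.0433), in a range of 0.0433 to 0.194. The differences of KLF7 and KLF11 were -0.14 (adjusted p = 0.668) and -0.04 (adjusted p = 0.902).

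The lines were next set against each other under each condition, with the same libraries as above, so that these contrasts share groups with the others. Under AC220 all 8 tested KLFs other than KLF4 differed between the lines, 3 up and 5 down in MV4-11, beside 76.2% of all genes tested, 36.7% up and 39.5% down. The libraries of the lines did not overlap for any of the 8, beside 75.5% of all genes tested. KLF2 averaged 0.705 ± 0.291 CPM in MV4-11 AC220 and 8.95 ± 1.19 CPM in OCI-AML3 AC220, 12.4-fold lower (log2 fold change -3.64, SE 0.278, adjusted p = 1.02e-12). KLF6 averaged 10.3 ± 0.865 CPM in MV4-11 AC220 and 40.2 ± 3.86 CPM in OCI-AML3 AC220 (log2 fold change -1.96, SE 0.114, adjusted p = 1.86e-15). KLF9, not called under DMSO, averaged 9.71 ± 1.28 CPM in MV4-11 AC220 and 20.0 ± 2.37 CPM in OCI-AML3 AC220 (log2 fold change -1.04, adjusted p = 1.09e-07). KLF10, also not called under DMSO, averaged 21.9 ± 5.14 CPM in MV4-11 AC220 and 12.3 ± 4.08 CPM in OCI-AML3 AC220 (log2 fold change 0.84, adjusted p = 0.000202).

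The ratio of summed counts of KLF4, 4 in MV4-11 AC220 and 54 in OCI-AML3 AC220, was 0.0836 with a counting interval of 0.0220 to 0.227. The remaining log2 fold changes under AC220 were -0.92 for KLF7 (adjusted p = 3.03e-05), 1.04 for KLF11 (adjusted p = 9.93e-07) and 0.77 for KLF13 (adjusted p = 6.87e-07). The difference of KLF11 was close in size under both conditions. For KLF3 it was -0.41 (adjusted p = 0.0105), which missed the threshold without replicate 3 of MV4-11 AC220 (adjusted p = 0.0533) and without 2 or all 3 of the libraries that stood apart (0.0551 and 0.0520), in a range of 0.00428 to 0.0551 over the alternatives.

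Under DMSO, KLF11 and KLF13 were higher in MV4-11 and KLF2, KLF6 and KLF7 lower. That made 5 called of the 8 KLFs other than KLF4, 2 up and 3 down, beside 65.5% of all genes tested, 32.1% up and 33.4% down. The same 5 had libraries that did not overlap between the lines, beside 71.9% of all genes tested. KLF6 differed most clearly, at 18.7 ± 1.95 CPM in MV4-11 DMSO and 38.6 ± 0.715 CPM in OCI-AML3 DMSO (log2 fold change -1.04, SE 0.103, adjusted p = 4.84e-10). KLF11 averaged 14.1 ± 0.710 CPM in MV4-11 DMSO and 6.66 ± 0.966 CPM in OCI-AML3 DMSO, a log2 fold change of 1.08 (SE 0.157, adjusted p = 7.08e-07).

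The log2 fold change of MV4-11 over OCI-AML3 under DMSO was -0.87 for KLF2 (adjusted p = 0.000492), -0.77 for KLF7 (adjusted p = 0.000336) and 0.41 for KLF13 (adjusted p = 0.00216). KLF3, KLF9 and KLF10 were not called, and the 95% interval of the log2 fold change ran from -0.28 to 0.28 for KLF3, from -0.22 to 0.31 for KLF9 and from -0.52 to 0.31 for KLF10. For KLF4 the interval was wide, from -0.94 to 1.68.

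**Figure D4:**
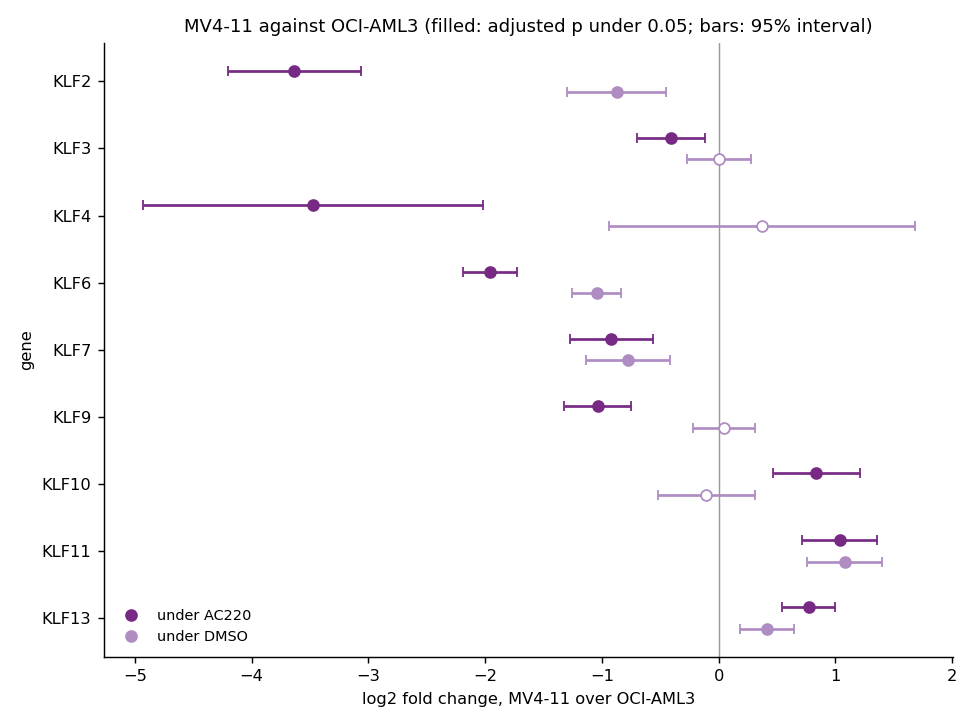
Points give the log2 fold change of MV4-11 over OCI-AML3 (horizontal axis) under AC220 (dark) above DMSO (light), with 95% intervals; filled points have an adjusted p under 0.05. KLF9 lies at -1.04 and KLF10 at 0.84 under AC220, and both near 0 under DMSO, while KLF11 lies at 1.04 under AC220 and 1.08 under DMSO.

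KLF1 was too low for the filtered test but was seen almost only in MV4-11. Under AC220 its summed counts were 29 in MV4-11 and 2 in OCI-AML3, a ratio of 16.4 with a counting interval of 4.14 to 141. Under DMSO they were 25 in MV4-11 and 0 in OCI-AML3, at least 6.87-fold higher when the empty group is set to a floor of 3 counts over the group, with a counting interval that begins at 5.18-fold. In a fit with no filter on low counts the adjusted p of the line difference was 0.000400 under AC220 and 0.000237 under DMSO. Intervals and floors cover counting error only.

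Other genes around the family were examined from lists. Their counts in MV4-11 stand beside the 58.3% of all genes tested that were called there, 31.5% up and 26.9% down. Those in OCI-AML3 stand beside 3.95%, a share whose number of genes ran from 13 to 1136 when 1 library was left out. Calls of single list genes in OCI-AML3 are not given for those fits, so how far they rest on 1 library is not shown. Of 7 further KLF genes 4 were tested, and for AC220 none was called in either line by edgeR, DESeq2 or limma-voom, with 1 in each line at an unadjusted p under 0.05. KLF14 was not analysed here. KLF12, a CtBP-binding relative of KLF3, differed between the lines, at 1.61 ± 0.618 CPM in MV4-11 AC220 and 1.01 ± 0.0800 in MV4-11 DMSO, against 8.48 ± 1.08 in OCI-AML3 AC220 and 8.58 ± 0.231 in OCI-AML3 DMSO. Of the 4 tested SP factors, the near relatives that bind the same GC boxes, 1 rose and 1 fell in MV4-11: SP3 by a log2 fold change of 0.40 (adjusted p = 0.0260) and SP2 by -0.54 (adjusted p = 0.00429). SP4 rose in OCI-AML3, at 11.6 ± 0.262 CPM with AC220 and 7.37 ± 0.414 CPM with DMSO (log2 fold change 0.65, adjusted p = 0.0340), and was also called by DESeq2 and limma-voom. SP1, the most abundant of them, was at 27.2 ± 4.21 CPM with AC220 and 29.5 ± 1.69 CPM with DMSO in MV4-11 (adjusted p = 0.400).

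Among 12 co-regulators that KLFs recruit, 2 rose and 2 fell in MV4-11 by edgeR, beside 58.3% of all genes called either way, and limma-voom called SIN3B as well (adjusted p = 0.0451). The acetyltransferase CREBBP rose by 0.48 and the deacetylase HDAC3 by 0.32 on the log2 scale, and the deacetylase HDAC2 fell by 0.47 and SAP30, a subunit of the SIN3A complex, fell by 0.98. SIN3A itself was at 44.9 ± 1.75 CPM with AC220 and 45.5 ± 3.16 CPM with DMSO in MV4-11. The corepressors CTBP1 and CTBP2 were not called in MV4-11, and CTBP1 was the one co-regulator that edgeR called in OCI-AML3 (log2 fold change 0.32, adjusted p = 0.0255). DESeq2 called CREBBP there too, as lower with AC220 (log2 fold change -0.24, adjusted p = 0.0269).

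Of 8 genes that act upstream of KLF2, the kinases MAP2K5 and MAP3K3 rose in MV4-11 (log2 fold change 0.72 and 0.66) and MEF2A fell. MEF2A, one of the MEF2 factors named for the consensus above, averaged 14 ± 0.924 CPM with AC220 and 29.5 ± 3.93 CPM with DMSO in MV4-11, a log2 fold change of -1.07 (SE 0.116, adjusted p = 4.18e-09). MEF2C, far more abundant, was at 252 ± 15.2 CPM with AC220 and 266 ± 4.86 CPM with DMSO (adjusted p = 0.266), and MEF2D at 210 ± 30.6 and 210 ± 10.7 CPM (adjusted p = 0.976). In OCI-AML3 none of the 8 was called by edgeR, DESeq2 or limma-voom, and 2 had an unadjusted p under 0.05.

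Genes that KLFs are known to act on moved in both directions in MV4-11. Of 7 tested targets of KLF2, KLF4, KLF6 and KLF13, 2 rose and 3 fell by edgeR. ITGB7, an adhesion receptor of lymphocytes, was among those that rose (log2 fold change 3.15). KLF6 is known to activate CDKN1A in other cells. CDKN1A, the cell cycle inhibitor p21, fell by 2.35 on the log2 scale and THBD, thrombomodulin, fell by 0.56. CD14, a monocyte receptor, fell to 0.0310 ± 0.0537 CPM with AC220, against 0.328 ± 0.117 CPM with DMSO. It was near the limit of counting, with 1 count summed over the AC220 libraries and 16 over the DMSO libraries. THBD was the one target that edgeR called in OCI-AML3, where it rose (log2 fold change 0.56, adjusted p = 0.0312). MYC was at 22.7 ± 11.4 CPM with AC220 and 43.2 ± 7.87 CPM with DMSO in MV4-11, and at 48.6 ± 13.7 CPM with AC220 and 20.2 ± 6.15 CPM with DMSO in OCI-AML3. In edgeR MYC missed the threshold in MV4-11 (adjusted p = 0.0645) and in OCI-AML3 (0.0979). DESeq2 called MYC in both lines (adjusted p = 0.0268 in MV4-11 and 0.0223 in OCI-AML3), and limma-voom in MV4-11 (0.0466).

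Of 12 red cell genes that KLF1 acts on, 5 were tested. ICAM4 and EPB42, red cell surface and skeleton proteins, rose in MV4-11 (log2 fold change 1.71 and 1.06) and E2F2, a cell cycle factor, fell by 3.42. BCL11A, which KLF1 activates in red cells, was at 104 ± 2.42 CPM with AC220 and 106 ± 0.950 CPM with DMSO in MV4-11, against 0.405 ± 0.153 and 0.612 ± 0.664 CPM in OCI-AML3.

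The genes that share inducers with KLF9, KLF10 and KLF11 were also counted. Of 4 tested glucocorticoid-induced genes FKBP5 rose in MV4-11 (log2 fold change 0.41, adjusted p = 0.0208), while KLF9 fell; TSC22D3 was at 82.2 ± 4.65 CPM with AC220 and 83 ± 1.76 CPM with DMSO. Of 14 genes of the TGF-beta response 4 rose and 4 fell in MV4-11, a share close to the 58.3% of all genes called. SMAD3, a transducer, and PMEPA1, an inhibitor, rose (log2 fold change 1.21 and 1.08), and the inhibitor SKIL, the receptor TGFBR1 and the target ID1 fell by 1.18, 0.76 and 2.66. In OCI-AML3 none of the 14 was called by edgeR, DESeq2 or limma-voom, and 3 had an unadjusted p under 0.05.

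KLF2, KLF4, KLF6 and KLF10 are at times counted with the immediate early genes, which growth signals induce within minutes. Of 10 such genes tested from a list without KLFs, 8 fell and none rose in MV4-11, beside 26.9% of all genes down and 31.5% up, with a median log2 fold change of -1.95 against 0.07 for all genes. EGR1 averaged 2.40 ± 0.372 CPM with AC220 and 45.1 ± 5.17 CPM with DMSO, IER3 2.29 ± 0.431 and 43.1 ± 0.602 CPM, and JUN 3.24 ± 0.680 and 13.9 ± 1.01 CPM. EGR3 averaged 0.0605 ± 0.105 and 5.71 ± 0.690 CPM, and IER2 fell by 0.95 and JUNB by 0.88 on the log2 scale. KLF2 and KLF6 fell in the same libraries and KLF10 rose. In OCI-AML3 none of the 10 was called by edgeR, DESeq2 or limma-voom and none had an unadjusted p under 0.05, and EGR1 was at 46.2 ± 14.1 CPM with AC220 and 54.3 ± 1.84 CPM with DMSO.

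**Figure D5:**
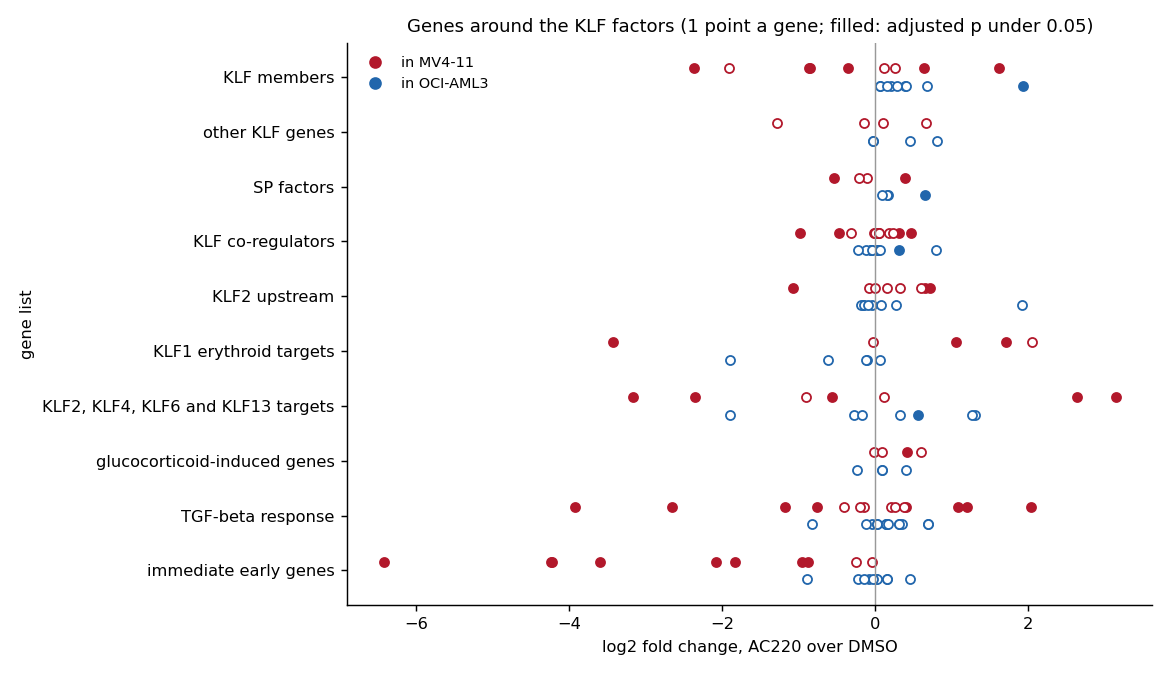
Each point is a tested gene, placed by its log2 fold change of AC220 over DMSO (horizontal axis) in MV4-11 (red) and OCI-AML3 (blue), by list (vertical axis); filled points have an adjusted p under 0.05. In MV4-11 the filled points of the KLF genes lie on both sides of 0, and those of the immediate early genes all lie below 0.

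The genes whose log2 CPM were most like those of a KLF over the 12 libraries are given as a description, since the libraries share the difference between the lines and that with AC220. Those most like KLF2 were CDC27, MYBL1 and WEE1 (Pearson's r 0.992, 0.992 and 0.990), and those most like KLF6 were SKA2, FAM107B and IGFBP4 (0.994, 0.993 and 0.993). CDC23, HAT1 and CYCS were most like KLF9 (0.987, 0.976 and 0.975). For KLF10 they were SYK, RACK1 and TAF1D (0.975, 0.971 and 0.969), and for KLF13 HNRNPA1, EIF4A2 and PABPC1 (0.983, 0.983 and 0.981). COG6, FCHSD2 and CNOT6L were most like KLF11 (0.982, 0.981 and 0.980), TMEM170B, NUFIP2 and FAM53C most like KLF7 (0.964, 0.962 and 0.959) and DYNLT1, LRRC42 and SAPCD1 most like KLF3 (0.935, 0.906 and 0.896). For KLF4, with few counts, they were ST20-MTHFS, PPIAL4G and GK (0.923, 0.915 and 0.913), of which PPIAL4G has near-identical copies.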

How the data were processed

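RNA of 12 libraries, 3 per group, was sequenced with the Lexogen QuantSeq 3′ mRNA kit, per the labels' protocols. The submitters' processing notes name the build hg19 and the tools featureCounts, Subread 2.0.0, HISAT2 2.0.4, limma 3.42.2, R 3.6.1, FastQC 0.11.6, bcl2fastq 2.17.1.14 and cutadapt 1.9.1. The annotation, strand setting and handling of reads with several positions are not given in the sources used here. The authors deposited a table of raw counts for each gene symbol and library, and normalised log2 values of 11075 genes, which hold 8 of the 10 KLFs and served as an alternative input.

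A row without a symbol, 0.00343% to 0.00503% of the counts of a library, was left out. After filterByExpr (minimum count 10) on the 4 groups, 12392 genes remained; scaling was by TMM. Tests used the robust quasi-likelihood F test of edgeR 4.0.16 under R 4.3.3, with a mean per group over all 12 libraries, 8 residual degrees of freedom and Benjamini-Hochberg adjustment over the tested genes at 0.05. It was tested on simulated data in which, unlike here, no library stood apart from its group. Standard errors are the log2 fold change over the root of F. The 5 contrasts share groups. CPM are TMM-scaled; counting intervals are 95% exact binomial, and they cover counting error only, since without molecular identifiers reads may share a molecule.

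Promoter windows came from RefSeq (GRCh38.p14), with 8 of 10 KLFs matched; the windows of KLF3 and KLF10 were not used here. The match letters were searched on both strands for 10 motifs. Overlapping genes were read from GENCODE 29, which is on another build than the counts, and were used for names only.

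The members and gene lists were chosen with earlier results of these data known. All 10 KLFs are described. Some genes of the lists are counted with their list and not reported here by name. Of each list, up to 6 tested genes with the smallest adjusted p in MV4-11 are eligible to be named, and for each tested KLF the 3 genes with the highest Pearson's r of log2 CPM (prior count 2), clone names left out. Others named (SIN3A, CTBP2, MEF2D) were chosen after their values were seen. Tried as alternatives were DESeq2 1.42.0, limma-voom (limma 3.58.1), median-ratio size factors, a stricter filter (20 counts in 3 libraries) and none, limma on the deposited log2 values, a replicate block, the compared libraries alone and each library left out.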

Additional observations from a re-analysis of the deposited data

Results flagged for a closer look

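The effect of AC220 differed between the lines, by edgeR's test of the difference itself with Benjamini-Hochberg adjustment, for 4 of 8 KLFs tested and for KLF4, which passed the filter on low counts only through the group in which it was high. As the log2 effect in MV4-11 minus that in OCI-AML3, the difference was -2.76 for KLF2, -0.92 for KLF6, -1.08 for KLF9 and 0.94 for KLF10, and -3.84 for KLF4. KLF2, KLF6 and KLF9 were called in MV4-11 and not in OCI-AML3, KLF4 in OCI-AML3 and not in MV4-11, and KLF10 in MV4-11, with an adjusted p of 0.0508 in OCI-AML3, where DESeq2 called it. Of all genes tested 46.7% differed in this way. No test for a single outlying value was made within the groups of 3 libraries.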

How the results depend on the processing

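Of 45 results for single KLFs (9 genes in 5 contrasts), 31 kept their direction and their side of the threshold under every alternative run. The number of KLFs called for AC220 in OCI-AML3, 1 (KLF4), was 2 with no filter on low counts, with a replicate block and with the compared libraries alone. It was 0 with the stricter filter, which left KLF4 out of the test, and with the deposited log2 values, which do not hold KLF4, and 0 with 2 or all 3 libraries that stood apart left out, alternatives chosen after seeing the data. DESeq2 also called 1 there, KLF10. Of all 11075 genes with deposited log2 values, limma called 1 for AC220 in OCI-AML3, so few calls of any gene were made with that input. With KLF4 included, leaving out 1 library gave 0 to 2 there, 5 to 6 for AC220 in MV4-11 and 5 to 7 for the difference between the lines. For MV4-11 against OCI-AML3 it gave 8 to 9 under AC220 and 5 under DMSO. The replicate block, KLF4 included, gave 6 in MV4-11, 6 for the difference, 9 under AC220 and 5 under DMSO. In MV4-11 the deviations of samples with the same number had r -0.12 to -0.08, and those with different numbers -0.02 to 0.11. In OCI-AML3 samples with the same number had r 0.05 to 0.18, and those with different numbers -0.13 to 0.06. The main test did not pair samples by number, and the replicate block did. For AC220 in OCI-AML3 the block called 764 of all genes tested, against 489 in the main fit. Uncalled log2 fold changes near 0 changed sign. With the deposited values this held for the difference between the lines of KLF11 (0.017) and the lines under DMSO of KLF3 (-0.014), which was also -0.0078 with median-ratio size factors, -0.0078 with DESeq2, -0.0017 with the stricter filter and -0.0093 without the 3 libraries that stood apart. Without those 3, KLF11 was at -0.019 in OCI-AML3 and 0.043 for the difference between the lines. Leaving out 1 library gave -0.022 to 0.10 for KLF6 in OCI-AML3, -0.32 to 0.082 for KLF7 and -0.17 to 0.086 for KLF11 in the difference between the lines, and under DMSO -0.055 to 0.090 for KLF3, -0.064 to 1.01 for KLF4 and -0.057 to 0.13 for KLF9. The cause was not tested.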

Other observations

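The RefSeq promoter windows of the other KLFs differed in their letters. The KLF4 window was 69.0% G or C, with 4 GC boxes and 10 CACCC-type boxes. The KLF9 window was 32.7% G or C and the KLF1 window 57.0%, and neither held a GC box or a CACCC-type box. KLF11 had a pair of windows, with 2 and 7 GC boxes. KLF7 had 4 windows, 1 of which held GC boxes, 4 in number. None of these windows held the MEF2 consensus. A KLF7 window held 1 CArG box (CCWWWWWWGG) and another 1 STAT site (TTCNNNGAA), found in 1.29% and 7.66% of all windows. A KLF11 window held 1 CRE (TGACGTCA), found in 1.85% of all windows.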
